A study of Homo sapiens with 16 samples.

Results

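Expression of 36 genes of the unfolded protein response and of endoplasmic reticulum (ER) quality control was followed after depletion of YES1, a Src family tyrosine kinase, in MDA-MB-231 and SUM159PT, established human cell lines of triple-negative breast cancer. Members were taken by symbol, through GENCODE release 29, from a list chosen with earlier results of these data known. Shares set beside those of all genes therefore describe the members and are no test of an excess. All 36 members matched 1 gene ID each among the 58735 IDs of both deposited count tables. They comprise 5 stress sensors and transcription factors, 11 chaperones and cochaperones, 6 oxidoreductases grouped under disulfide formation, 11 proteins of ER-associated degradation and 3 proteins of translocation and export. Polyadenylated RNA was sequenced in 16 libraries, 4 in each of 4 groups. In both lines, cells of the genotype given as WT received siYES1, an siRNA against YES1, or siNS, an siRNA against firefly luciferase that serves as control. Every group was transfected with Lipofectamine2000, given complete medium after 6 h, changed to fresh medium at 24 h and collected at 48 h. The design text calls the 4 libraries of a group technical replicates, so p-values measure only the spread between such samples. The SUM159PT libraries carry column names with the prefix S149, while their titles give SUM159PT.

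The unfolded protein response begins when misfolded proteins gather in the ER lumen. The kinase and endonuclease ERN1 (IRE1) then splices XBP1 mRNA, the kinase EIF2AK3 (PERK) phosphorylates the initiation factor eIF2α and thereby favours translation of ATF4, and ATF6 moves to the Golgi to be cut into an active transcription factor. Their targets encode chaperones such as HSPA5 (BiP), oxidoreductases that form disulfides, and the machinery that sends misfolded proteins back to the cytosol for destruction. Gene counts report mRNA abundance and show neither XBP1 splicing nor sensor activity.

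Library totals ran from 15863961 to 21158617 counts in MDA-MB-231 and from 15680459 to 23451253 in SUM159PT. On the log2 scale YES1 fell by 2.20 in MDA-MB-231 and fell by 2.96 in SUM159PT cells (edgeR adjusted p = 5.25e-11 and 3.88e-08), with no overlap between groups in either line. The receptor genes ESR1 and PGR averaged at most 0.527 and 0.0312 CPM (counts relative to library sizes scaled by TMM, the trimmed mean of M values) in control cells. ERBB2 averaged 114 CPM in control MDA-MB-231 cells and 69.5 in control SUM159PT cells, and VIM averaged 468 and 1375. The markers of mesenchymal-type breast cancer, VIM among them, summed to 2292 to 2346 CPM in MDA-MB-231 control libraries and 2175 to 2850 in SUM159PT. Epithelial keratins summed to 2404 to 3086 and 1426 to 1630 CPM. Markers of leukocytes (PTPRC, CD3E, CD14) summed to 7.59 to 9.60 CPM in the MDA-MB-231 control libraries and 1.40 to 2.40 with siYES1, and to 3.55 to 5.58 and 0.404 to 1.36 in SUM159PT, with CD3E at 0 in all libraries but 1 of MDA-MB-231 with siYES1, where it was 0.0575 CPM. Markers of endothelium (PECAM1, CDH5, VWF) summed to 4.41 to 8.79 and 2.24 to 4.10 CPM in MDA-MB-231, and to 1.79 to 3.36 and 0.289 to 0.511 in SUM159PT. The leukocyte and endothelial sums were thus lower with siYES1. The mesenchymal-type sum was higher with siYES1, at 2782 to 2822 CPM in MDA-MB-231 and 3915 to 4036 in SUM159PT. Keratins summed to 2207 to 2298 and 1378 to 1514 CPM with siYES1, lower in MDA-MB-231 and overlapping the controls in SUM159PT. The part of these markers in the results was not tested. In these bulk libraries, fewer cells of a type and less RNA per cell cannot be told apart.

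In the SUM159PT table, control replicate 1 stood apart. It held the lowest value of the 4 control libraries for 25 of the 35 members tested, against 36.3% of all genes tested. It held the highest value for 5 members, against 35.7% of all genes. For 14 members it was below 80% of the mean of the other 3 libraries, a share that was not counted over all genes. HERPUD1 was at 39.3% of that mean, DNAJB9 at 46.6%, EIF2AK3 at 50.5%, ERO1B at 50.7%, SYVN1 at 57.6%, SEC24D at 60.4%, HSPA5 at 60.6%, ERN1 at 63.1% and XBP1 at 64.2%. EDEM1 (136%), CRELD2 (125%) and DNAJC10 (114%) lay above it. This library also had the lowest total of all 16. Counts over all members in SUM159PT and in the difference between lines are therefore given with and without it, as are the values of several members. Counts by role, by overlap, by promoter element and between control lines are given with all libraries.

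**Figure D1:**
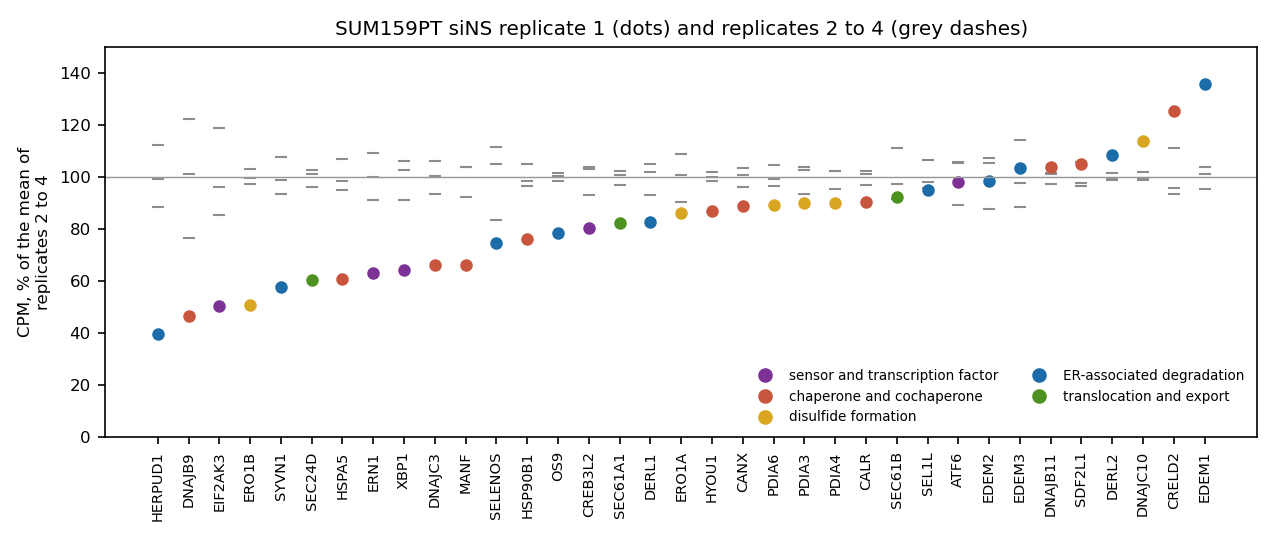
CPM of each member in SUM159PT control replicate 1 (coloured dots, by role) as a percentage of the mean of control replicates 2 to 4, whose own values are the grey dashes; members are ordered from lowest to highest on the x axis. HERPUD1, at 39.3%, is the lowest dot, and DNAJC10, CRELD2 and EDEM1, at 114% to 136%, are the highest.

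Several members carry stress elements in their promoters. The windows below, from RefSeq on GRCh38.p14, were chosen because they belong to members whose response is described further on: HSPA5, HSP90B1 and CALR, which fell in MDA-MB-231, XBP1, ERO1B, PDIA6 and HERPUD1, which rose in SUM159PT, and HYOU1, which rose in both. Each shows 30 bases of the gene's strand, 5′ to 3′, upstream of the RefSeq start, with the motif in capitals. The ER stress element ERSE was searched as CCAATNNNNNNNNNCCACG and ERSE-II as ATTGGNCCACG, on both strands; on the other strand the half-sites read CGTGG and ATTGG or CCAAT. Both are known as sites for ATF6 with the CCAAT factor NF-Y. The last window holds a C/EBP-ATF response element (CARE, TTGCATCA), known as a site for ATF4.
HSPA5, ERSE, chr9:125241385-125241414, minus strand: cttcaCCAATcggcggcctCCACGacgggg
HSP90B1, ERSE, chr12:103930211-103930240, plus strand: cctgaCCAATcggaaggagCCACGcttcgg
CALR, ERSE on the other strand, chr19:12938379-12938408, plus strand: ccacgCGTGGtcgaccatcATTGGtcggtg
XBP1, ERSE, chr22:28800597-28800626, minus strand: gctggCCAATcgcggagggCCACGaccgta
ERO1B, ERSE on the other strand, chr1:236282177-236282206, minus strand: gcccgCGTGGtcccgcctcATTGGccgccg
PDIA6, ERSE, chr2:10812847-10812876, minus strand: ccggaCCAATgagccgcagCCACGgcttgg
HERPUD1, ERSE-II, chr16:56932016-56932045, plus strand: cggacgccgATTGGgCCACGttgggagagt
HYOU1, ERSE-II on the other strand, chr11:119057370-119057399, minus strand: gccccgtgaCGTGGtCCAATcccaggccga
HERPUD1, CARE, chr16:56931955-56931984, plus strand: gacgcggcgggTTGCATCAgcccgtgccca

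Of the 36 members, 32 had a RefSeq promoter of 300 bases (250 before the start and 50 after it); PDIA3, DERL1, DERL3 and SEC24D had none. Shares are counted over genes, a gene counting once if any of its promoters held the motif. ERSE was found in 8 of the 32 (25.0%): CALR, CANX, CRELD2, ERO1B, HSP90B1, HSPA5, PDIA6 and XBP1. Among all 27305 genes with such a promoter, 0.0916% held it. HSP90B1 held it at 2 places. ERSE-II was found in HERPUD1, HYOU1 and SDF2L1 (9.38% of the 32, against 0.0696% of all genes), and HYOU1 held it at 2 places. The element TGACGTGG (UPRE), known as a site for XBP1, was found in DNAJC10 and HYOU1, where it overlaps an ERSE-II, and in 0.927% of all genes. CARE was found in HERPUD1 alone among the 32, and in 1.08% of all genes. A match describes letters in these windows, not a bound site. The members were picked as genes of the unfolded protein response and ER quality control, so these shares describe the list. No test of enrichment was made.

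Levels differed widely among members in control cells. On the scale of CPM per kilobase of exon, CALR, a lectin chaperone that binds calcium, was the most abundant member in MDA-MB-231 control cells (mean 679.6 ± 52.4 SD, n = 4), followed by HSPA5 (388 ± 30.9) and HSP90B1 (219 ± 38.1). In SUM159PT control cells HSPA5 was highest (616 ± 139), and its range overlapped that of HSP90B1 (517 ± 69.1). The sensors EIF2AK3 and ERN1 were among the 5 lowest of the 36 in both lines: on the same per-kilobase scale, EIF2AK3 averaged 1.67 in control MDA-MB-231 cells against 7.29 in control SUM159PT cells, and ERN1 averaged 1.43 and 2.54. ATF6 stood higher, at 12.8 and 11.3. DERL3, a derlin of secretory tissues, was the only member left out by the filter on low counts with all libraries; it had 5 to 15 counts in each MDA-MB-231 library and 0 in each SUM159PT library, and 2923 of its 3796 exon bases overlap SMARCB1 on the opposite strand.

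With siYES1, more members fell than rose in MDA-MB-231, and members rose without any fall in SUM159PT. Sizes written as a rise or a fall are log2 fold changes. In MDA-MB-231, 3 of 35 members rose and 10 fell at an edgeR adjusted p under 0.05, with backgrounds of 24.9% and 27.5% of all genes tested, and the members' median log2 fold change was -0.03 (0.00 over all genes). The share that fell was thus near that of all genes, and the share that rose was below it. Without MDA-MB-231 control replicate 1, 7 members rose, with ATF6, CREB3L2, CANX and ERO1A added, and 10 fell (backgrounds 25.9% and 27.5%). HSPA5, SEC24D, EDEM2, SEL1L and HSP90B1 were among those that fell. In SUM159PT, 17 of 35 members rose and 0 fell, with backgrounds of 17.7% and 19.0%, and the median was 0.28 (-0.03 over all genes). The share that rose exceeded the background. ERN1, HERPUD1 and EDEM2 rose most there, while HSPA5 and HSP90B1 did not pass the test.

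The counts for SUM159PT depended on single libraries and on the scaling. Leaving out siYES1 replicate 1, 2 or 4 gave 11 members that rose each time and 0 that fell (backgrounds 13.6% to 14.3% and 15.4% to 16.3%). Without control replicate 1, 18 members rose and 1 fell in SUM159PT (backgrounds 21.0% and 21.5%), with a median of 0.20. The 17 members called with all libraries were all among the 18, and 16 of the 17 had a smaller fold change. When total counts replaced TMM as the scaling, the median of all genes shifted by -0.17 in SUM159PT, 8 members were called higher and 6 lower (backgrounds 9.63% and 28.8%), and the share of called genes that were higher went from 48.2% to 25.0%. The 8 were ERN1, EIF2AK3, XBP1, CREB3L2, HYOU1, ERO1A, HERPUD1 and EDEM2. In MDA-MB-231 the same change shifted the median by -0.05 and kept all 13 calls, with DNAJB9 (-0.23) called lower as well (backgrounds 21.7% and 30.4%).

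Judged by overlap alone, in MDA-MB-231 all siYES1 libraries lay above all control libraries for 2 members (22.4% of all genes) and below them for 11 (24.7%). In SUM159PT they lay above for 19 members (18.2% of all genes) and below for 1, SDF2L1 (18.6%). The share above was thus smaller than that of all genes in MDA-MB-231 and larger in SUM159PT.

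**Figure D2:**
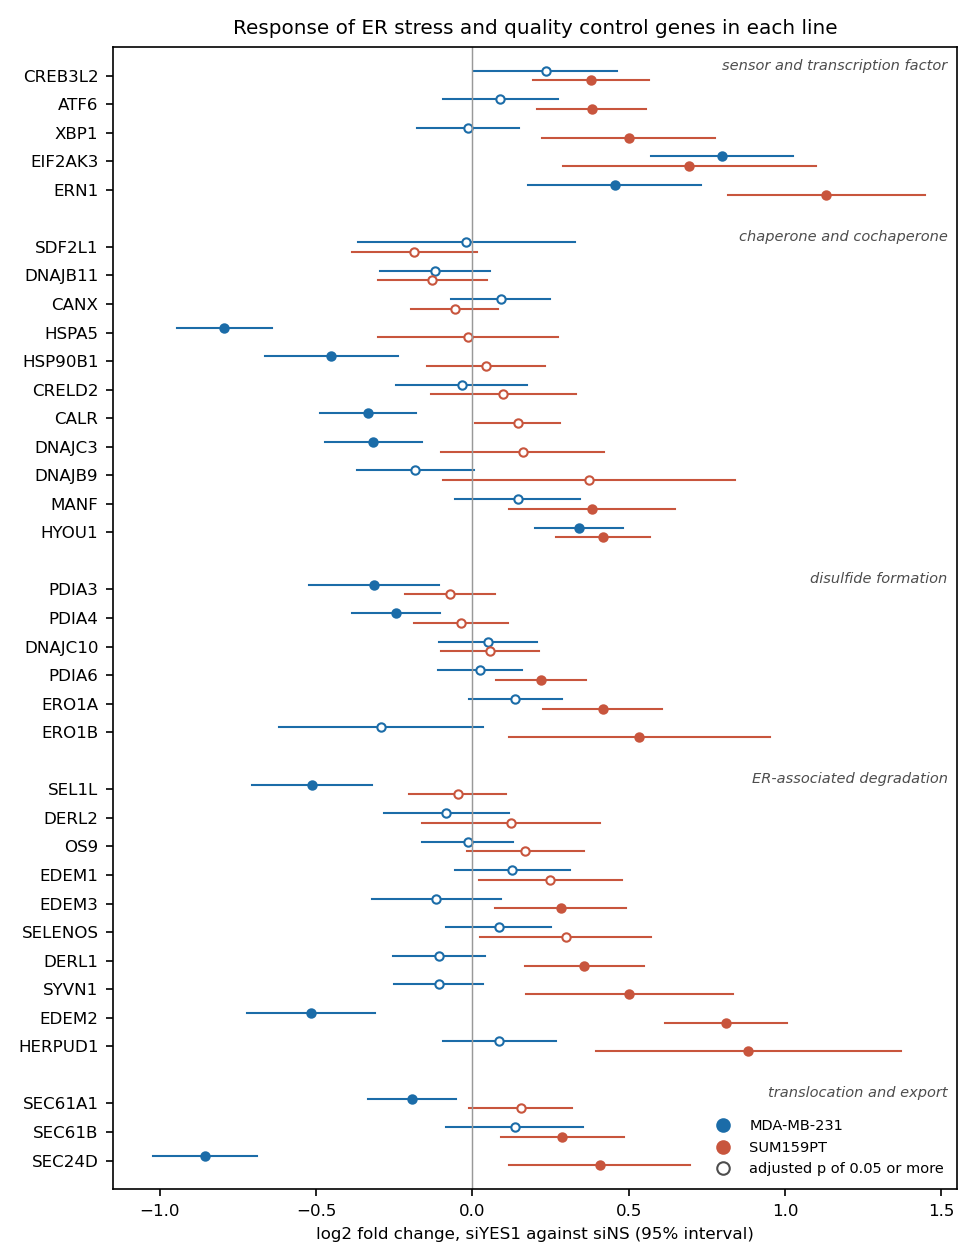
Log2 fold change of siYES1 against siNS for the 35 members tested, by role, with 95% intervals; blue is MDA-MB-231, red is SUM159PT, and open points did not pass the test. Red points lie to the right of 0 for all 5 sensors and factors, whereas blue points of HSPA5, HSP90B1, EDEM2, SEL1L and SEC24D lie to the left.

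Among the sensors and transcription factors, 2 of 5 rose in MDA-MB-231 and 5 of 5 rose in SUM159PT. ERN1 was at 16.05, 14.7, 17.8 and 16.1 CPM in the 4 MDA-MB-231 control libraries and 25.2, 26.8, 16.7 and 19.9 with siYES1. Replicates 1, 2 and 4 of siYES1 lay above every control, and replicate 3 lay within the control range; the log2 fold change was 0.46 (edgeR adjusted p = 0.00808, SE 0.13). In SUM159PT, ERN1 was at 18.3, 31.6, 26.4 and 28.9 CPM in controls and 56.8, 54.8, 53.6 and 65.2 with siYES1, without overlap. This was the largest rise of any member in either line, 1.13 (edgeR adjusted p = 6.8e-05, SE 0.15), and 0.99 without control replicate 1.

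EIF2AK3 was at 10.7, 8.72, 9.45 and 9.07 CPM in MDA-MB-231 controls and 17.4, 16.7, 16.9 and 14.9 with siYES1. The groups did not overlap, and the log2 fold change was 0.80 (edgeR adjusted p = 1.01e-05, SE 0.11). Its levels in SUM159PT were 21.8, 51.2, 41.4 and 36.8 CPM in controls and 58.2, 63.8, 63.9 and 58.8 with siYES1. All siYES1 libraries lay above all controls, but the spread of the controls was set mainly by replicate 1; the log2 fold change was 0.69 (edgeR adjusted p = 0.0109, SE 0.19), and 0.50 without that library. EIF2AK3 shares 781 exon bases with the antisense gene AC104134.1, and the labels do not settle whether counting used the strand.

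XBP1 encodes the transcription factor activated by ERN1. It was at 64.6, 76.7, 72.1 and 65.8 CPM in MDA-MB-231 controls and 69.1, 67.3, 71.2 and 68.8 with siYES1, ranges that overlapped, with a log2 fold change of -0.01 (SE 0.08, edgeR adjusted p = 0.893). SUM159PT controls stood at 110.3, 182, 176 and 157 CPM and siYES1 libraries at 225, 218, 206 and 235. The latter were all higher, by 0.50 (edgeR adjusted p = 0.0082, SE 0.13), and by 0.36 without control replicate 1.

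ATF6 was at 124, 110.3, 92.4 and 95.9 CPM in MDA-MB-231 controls and 113, 116, 111 and 109 with siYES1, with a log2 fold change of 0.09 (SE 0.09, edgeR adjusted p = 0.413). In SUM159PT it was at 83.6, 76.1, 89.8 and 90.4 CPM in controls and 109, 105, 111 and 118 with siYES1. Those groups did not overlap, and ATF6 rose by 0.38 (edgeR adjusted p = 0.00248, SE 0.08), although the value with total counts, 0.21, did not pass the test. CREB3L2, an ER-membrane factor related to ATF6, was at 140.4, 93.5, 126 and 117 CPM in MDA-MB-231 controls and 160.3, 144, 128 and 127 with siYES1, overlapping ranges with a log2 fold change of 0.23 (SE 0.11, edgeR adjusted p = 0.079). Leaving out MDA-MB-231 control replicate 1 brought CREB3L2 (0.33) and ATF6 (0.18) past the threshold in that line. CREB3L2 was at 178, 206, 228 and 230.2 CPM in SUM159PT controls and 275, 267, 267 and 287 with siYES1, a rise without overlap of 0.38 (edgeR adjusted p = 0.0038, SE 0.09).

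**Figure D3:**
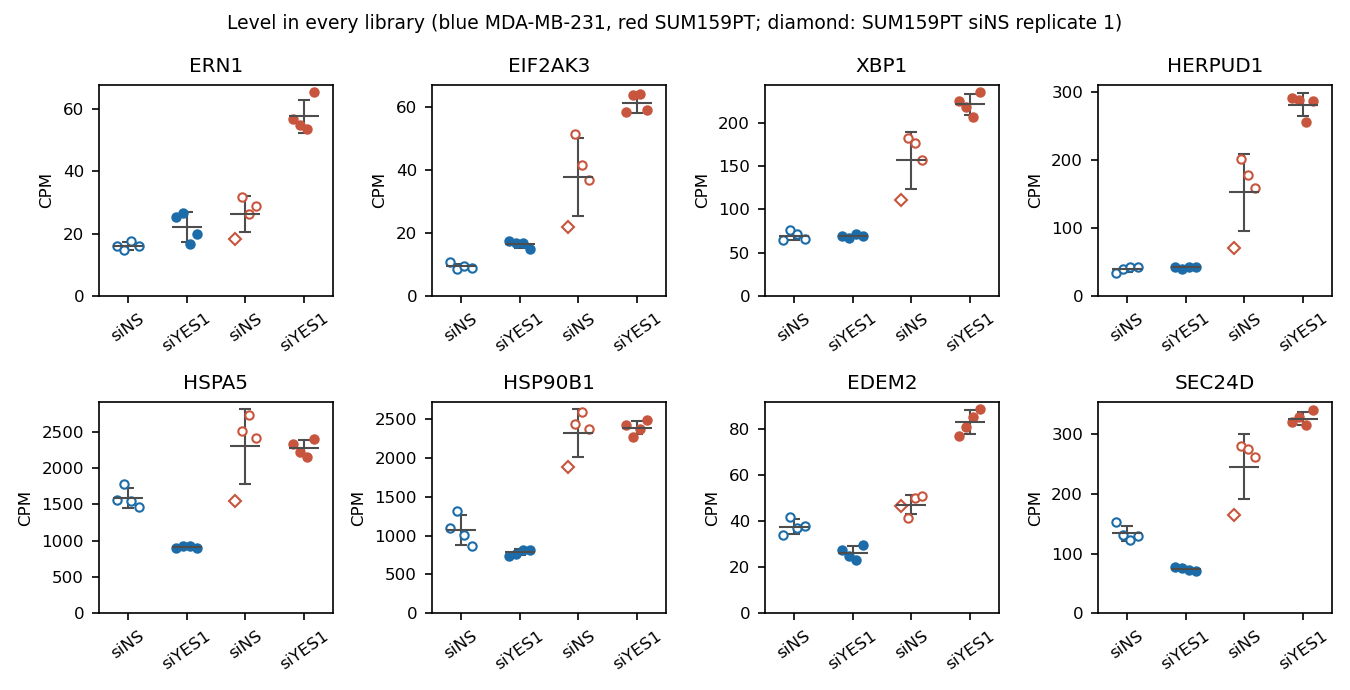
CPM (TMM-scaled within each line) of 8 members in every library, with the mean and SD of each group; blue is MDA-MB-231, red is SUM159PT, open symbols are siNS and filled ones siYES1, and the diamond is SUM159PT control replicate 1. HSPA5, EDEM2 and SEC24D drop with siYES1 in MDA-MB-231, EDEM2 and ERN1 climb in SUM159PT, and the diamond is the lowest control for every gene drawn except EDEM2.

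Of the 11 chaperones and cochaperones, 1 rose and 4 fell in MDA-MB-231. HSPA5, the abundant luminal HSP70 that also holds the sensors inactive, was at 1558, 1773, 1543 and 1460.5 CPM in controls and 903, 924, 925 and 902 with siYES1. Every siYES1 library lay far below every control, and HSPA5 fell by 0.79 (edgeR adjusted p = 1.33e-07, SE 0.07), to 0.58 of the control level as a ratio. HSP90B1, the ER paralogue of HSP90, was at 1100.3, 1319.7, 1004 and 867 CPM in controls and 743, 759, 819 and 816 with siYES1, again without overlap, and fell by 0.45 (edgeR adjusted p = 0.0013, SE 0.10). CALR fell by 0.33 (edgeR adjusted p = 0.00109, SE 0.07). DNAJC3, a cochaperone of HSPA5 that inhibits EIF2AK3, fell by 0.32 (edgeR adjusted p = 0.00168, SE 0.07).

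HYOU1, an exchange factor of HSPA5, went the other way in MDA-MB-231. It lay at 315 to 349 CPM in controls and 407 to 441 with siYES1 and rose by 0.34 (edgeR adjusted p = 0.000442, SE 0.07). It shares 666 exon bases with AP003392.3 on the opposite strand. The remaining 6 chaperone genes (DNAJB9, DNAJB11, SDF2L1, MANF, CRELD2 and CANX) had log2 fold changes from -0.18 to 0.15 and were not called. MANF (0.23) passed the threshold without MDA-MB-231 control replicate 2, and CANX (0.16) without control replicate 1. With total counts DNAJB9 (-0.23) was called lower.

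In SUM159PT, 2 of the 11 chaperone genes rose and 0 fell. HSPA5 was at 1545, 2503, 2723 and 2416 CPM in controls and 2330.2, 2223, 2149 and 2393 with siYES1. Control replicate 1 was lower than every other library of that line, and the log2 fold change was -0.01 (edgeR adjusted p = 0.945, SE 0.13), with a 95% interval of -0.30 to 0.27. Without control replicate 1 the value was -0.17 and HSPA5 was called lower. The other 3 controls all exceeded every siYES1 library. HSP90B1 was at 1877, 2427, 2589.5 and 2373 CPM in controls and 2416, 2271, 2375 and 2481 with siYES1. These ranges overlapped, with a log2 fold change of 0.04 (SE 0.09, edgeR adjusted p = 0.739), and of -0.05 without control replicate 1, not called either.

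HYOU1 rose in SUM159PT by 0.42 (edgeR adjusted p = 0.000474, SE 0.07), from 441 to 518 CPM to 632 to 687. MANF, a secreted ER stress protein, rose by 0.38 (edgeR adjusted p = 0.0267, SE 0.12), but its value with total counts was 0.22, not called, and its call also ended on leaving out control replicate 4 or siYES1 replicate 1, 2 or 4, with values from 0.35 to 0.39. The other 7 besides HSPA5 and HSP90B1 had log2 fold changes from -0.19 for SDF2L1 to 0.37 for DNAJB9. DNAJB9 (0.58) was called without control replicate 2. With total counts, SDF2L1 (-0.36), DNAJB11 (-0.30) and CANX (-0.23) were called lower.

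Disulfide formation depends on the PDI oxidoreductases and on ERO1 enzymes that reoxidise them. In MDA-MB-231, PDIA3, the glycoprotein-directed oxidoreductase, fell by 0.31 (edgeR adjusted p = 0.0135, SE 0.10), and PDIA4 fell by 0.24 (edgeR adjusted p = 0.00539, SE 0.07). PDIA3 has 2 pseudogenes by name and its groups overlapped; without siYES1 replicate 1 it was not called, at -0.28. PDIA6, DNAJC10 and ERO1A lay between 0.02 and 0.14, and ERO1A (0.18) was called without control replicate 1. ERO1B was at 7.07, 5.50, 6.53 and 6.28 CPM in controls and 4.83, 4.84, 6.63 and 4.44 with siYES1. Its groups overlapped through siYES1 replicate 3, and its log2 fold change was -0.29 (edgeR adjusted p = 0.123, SE 0.15); without that library it was -0.43 and called lower.

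In SUM159PT the same role gave 3 rises of 6 and 0 falls. ERO1B was at 7.68, 14.7, 15.1 and 15.6 CPM in controls and 20.01, 16.8, 19.5 and 20.5 with siYES1. The groups did not overlap, and ERO1B rose by 0.53 (edgeR adjusted p = 0.0453, SE 0.19). This call was lost on leaving out control replicate 3 or any siYES1 library (0.50 to 0.60) and with total counts (0.37), and without control replicate 1 the value was 0.34. ERO1A, the hypoxia-responsive paralogue, rose by 0.42 (edgeR adjusted p = 0.00251, SE 0.09). PDIA6 rose by 0.22 (edgeR adjusted p = 0.0206, SE 0.07), with a value of 0.05 with total counts, not called, and it lost its call on leaving out siYES1 replicate 1 (0.21) or 4 (0.22). It shares 1033 exon bases with ATP6V1C2. PDIA3, PDIA4 and DNAJC10 lay between -0.07 and 0.06, and PDIA3 (-0.24) and PDIA4 (-0.21) were called lower with total counts.

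ER-associated degradation takes misfolded proteins to a membrane ubiquitin ligase and on to the proteasome. In MDA-MB-231, 2 of the 10 members tested fell and 0 rose. EDEM2, a mannosidase-like protein that marks misfolded glycoproteins, was at 33.9, 41.7, 37.05 and 37.97 CPM in controls and 27.4, 25.1, 23.1 and 29.7 with siYES1. The groups did not overlap, and EDEM2 fell by 0.52 (edgeR adjusted p = 0.000272, SE 0.10). SEL1L, the adaptor of the ligase SYVN1, was at 167, 122, 151 and 141 CPM in controls and 104, 109, 102 and 92.5 with siYES1, a fall without overlap of -0.51 (edgeR adjusted p = 0.000165, SE 0.09). The other 8 lay between -0.12 and 0.13. HERPUD1, a membrane organiser of the ligase and one of the 8, was at 34.4, 40.5, 42.5 and 42.1 CPM in controls and 43.4, 39.7, 43.5 and 42.6 with siYES1. Its ranges overlapped, and its log2 fold change was 0.09 (edgeR adjusted p = 0.422, SE 0.09). SYVN1 itself was at 139, 141, 129.9 and 132 CPM in controls and 126, 128, 119 and 129 with siYES1. Its groups did not overlap, yet its log2 fold change of -0.11 (SE 0.07, edgeR adjusted p = 0.194) was not called.

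In SUM159PT, 5 of the 10 rose and 0 fell. HERPUD1 was at 70.7, 202, 178 and 159 CPM in controls and 292, 289, 256 and 287 with siYES1. Control replicate 1 was far below the other 3 controls, and all siYES1 libraries exceeded all controls; HERPUD1 rose by 0.88 (edgeR adjusted p = 0.00797, SE 0.23), and by 0.64 without control replicate 1. EDEM2, at 46.7, 41.5, 50.02 and 50.8 CPM in controls and 76.8, 81.04, 85.4 and 88.6 with siYES1, rose by 0.81 (edgeR adjusted p = 2.07e-05, SE 0.09), and by 0.80 without that library. For this gene, control replicate 1 lay within the range of the other controls.

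SYVN1 was at 35.7, 58.01, 61.3 and 66.7 CPM in SUM159PT controls and 74.6, 85.1, 72.9 and 81.6 with siYES1. The groups did not overlap, and it rose by 0.50 (edgeR adjusted p = 0.0207, SE 0.15); the value with total counts was 0.34, not called, and the call also ended without siYES1 replicate 2 (0.47) or 4 (0.49). SYVN1 shares 398 exon bases with FAU on the same strand. DERL1, a derlin of the retrotranslocation channel, rose by 0.36 (edgeR adjusted p = 0.00647, SE 0.09), and EDEM3, a paralogue of EDEM2, by 0.28 (edgeR adjusted p = 0.0358, SE 0.10). With total counts neither was called (0.19 and 0.11), and the EDEM3 call also ended in 6 of the 8 leave-one-out fits, those without control replicates 2 or 3 or any siYES1 library (0.22 to 0.31). SEL1L was at 131, 132, 147 and 136 CPM in controls and 137, 125, 131 and 136 with siYES1, overlapping ranges with a log2 fold change of -0.05 (SE 0.07, edgeR adjusted p = 0.64); with total counts it was -0.22 and called lower. OS9, DERL2, SELENOS and EDEM1 lay between 0.12 and 0.30 and were not called. EDEM1 was called at 0.36 without control replicate 1, and SELENOS at 0.39 without control replicate 2.

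Of the 3 members of translocation and export, 0 rose and 2 fell in MDA-MB-231, and 2 rose and 0 fell in SUM159PT. SEC24D, a cargo-binding subunit of the COPII coat that buds vesicles from the ER, was at 152, 132, 124 and 129 CPM in MDA-MB-231 controls and 76.9, 76.1, 73.2 and 70.7 with siYES1. No siYES1 library came near the controls, and SEC24D showed the largest fall of any member in either line, -0.86 (edgeR adjusted p = 1.52e-07, SE 0.08). In SUM159PT it was at 165, 280.4, 276 and 262 CPM in controls and 320.0, 329, 315 and 341 with siYES1, and it rose by 0.41 (edgeR adjusted p = 0.03, SE 0.13). That rise was 0.25 without control replicate 1 and 0.24 with total counts, the latter not called, and its call also ended on leaving out any single siYES1 library (0.39 to 0.43).

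SEC61A1, the pore subunit of the translocon, fell by 0.19 (edgeR adjusted p = 0.0227, SE 0.07) in MDA-MB-231. This call was lost without control replicate 4 or siYES1 replicate 1, 2 or 3 (-0.20 to -0.16 on the log2 scale). Its log2 fold change was 0.15 (edgeR adjusted p = 0.132, SE 0.08) in SUM159PT. SEC61B, a small subunit of the same channel, had 0.13 (edgeR adjusted p = 0.294, SE 0.10) in MDA-MB-231 and rose by 0.29 (edgeR adjusted p = 0.025, SE 0.09) in SUM159PT. Its call ended with total counts (0.12) and without control replicate 3 or 4 or siYES1 replicate 1, 2 or 3 (0.25 to 0.29).

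Set side by side, 3 members rose in both lines (ERN1, EIF2AK3 and HYOU1) and 0 fell in both. EDEM2 and SEC24D fell in MDA-MB-231 and rose in SUM159PT. Another 8 fell in MDA-MB-231 and were not called in SUM159PT, 12 rose in SUM159PT and were not called in MDA-MB-231, and 10 were called in neither line. The share of all genes in each of these joint classes was not counted, so these counts describe the members only. Whether the responses themselves differed was tested as the SUM159PT response minus the MDA-MB-231 response in a fit of all 16 libraries.

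The difference was called higher for 19 of 35 members and lower for 0, with backgrounds of 15.4% and 8.85% of all genes. The share called higher exceeded the background. Of the 35 values, 32 were positive, but the share of all genes with a positive difference was not counted. The median log2 difference was 0.38, against 0.03 over all genes. EDEM2 had the largest difference, 1.43 (edgeR adjusted p = 1.43e-07, SE 0.14), followed by SEC24D, 1.36 (edgeR adjusted p = 3.74e-06, SE 0.17). Next came ERO1B with 0.92 (edgeR adjusted p = 0.0137, SE 0.26), HERPUD1 with 0.89 (edgeR adjusted p = 0.0161, SE 0.26), HSPA5 with 0.88 (edgeR adjusted p = 0.000369, SE 0.16) and ERN1 with 0.77 (edgeR adjusted p = 0.0109, SE 0.21). HSPA5 had fallen in MDA-MB-231 and was not called in SUM159PT, whereas HERPUD1 was not called in MDA-MB-231 and had risen in SUM159PT. SYVN1 (0.71), XBP1 (0.61), HSP90B1 (0.59), DNAJC3 (0.58), CALR (0.57), SEL1L (0.56), DERL1 (0.56), EDEM3 (0.50), SEC61A1 (0.44), ATF6 (0.39), ERO1A (0.38), PDIA4 (0.31) and PDIA6 (0.29) completed the 19. EIF2AK3 differed by -0.01 (edgeR adjusted p = 1, SE 0.22), with a 95% interval of -0.47 to 0.46, and HYOU1 by 0.17 (edgeR adjusted p = 0.2, SE 0.10), with an interval of -0.02 to 0.37.

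Leaving out SUM159PT control replicate 1 gave 15 of 36 members called higher and 0 lower (backgrounds 13.3% and 10.5%), with a median of 0.27. All 15 were among the 19, while ATF6 (0.32), ERO1A (0.26), PDIA4 (0.20) and PDIA6 (0.19) dropped out. The largest differences became smaller: EDEM2 1.35, SEC24D 1.15, ERO1B 0.67, HERPUD1 0.59, HSPA5 0.66, ERN1 0.57 and SYVN1 0.48. EIF2AK3 was then at -0.26, not called. Total counts gave 11 higher and 1 lower, CANX at -0.27 (backgrounds 8.44% and 17.1%), after a shift of -0.22 in the median of all genes, and the share of called genes that were higher went from 63.5% to 33.0%. The 8 no longer called were ERN1 (0.56), DNAJC3 (0.36), EDEM3 (0.28), SEC61A1 (0.23), ATF6 (0.17), ERO1A (0.16), PDIA4 (0.09) and PDIA6 (0.07). Factors set over all 16 libraries enter these differences, so they are not exact subtractions of the line values. Factors set within each line gave 14 higher and 0 lower, with a median of 0.28. The share of all genes by direction is not given for that setting, so its count has no background here. Single libraries also decided some calls: ATF6 was lost in 5 fits (0.30 to 0.38), those without MDA-MB-231 control replicate 1, siYES1 replicate 3 or 4, or SUM159PT control replicate 1 or siYES1 replicate 4. PDIA4 was lost as well without SUM159PT siYES1 replicate 4 (0.27) and ERO1A without siYES1 replicate 1 (0.33). Leaving out SUM159PT control replicate 2 brought DNAJB9 (0.87), PDIA3 (0.37), OS9 (0.32) and SELENOS (0.41) past the threshold. DNAJB9 (0.74) also passed without SUM159PT control replicate 3, PDIA3 without MDA-MB-231 control replicate 3 (0.39) or 4 (0.42), and SEC61B (0.36) without MDA-MB-231 control replicate 1.

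**Figure D4:**
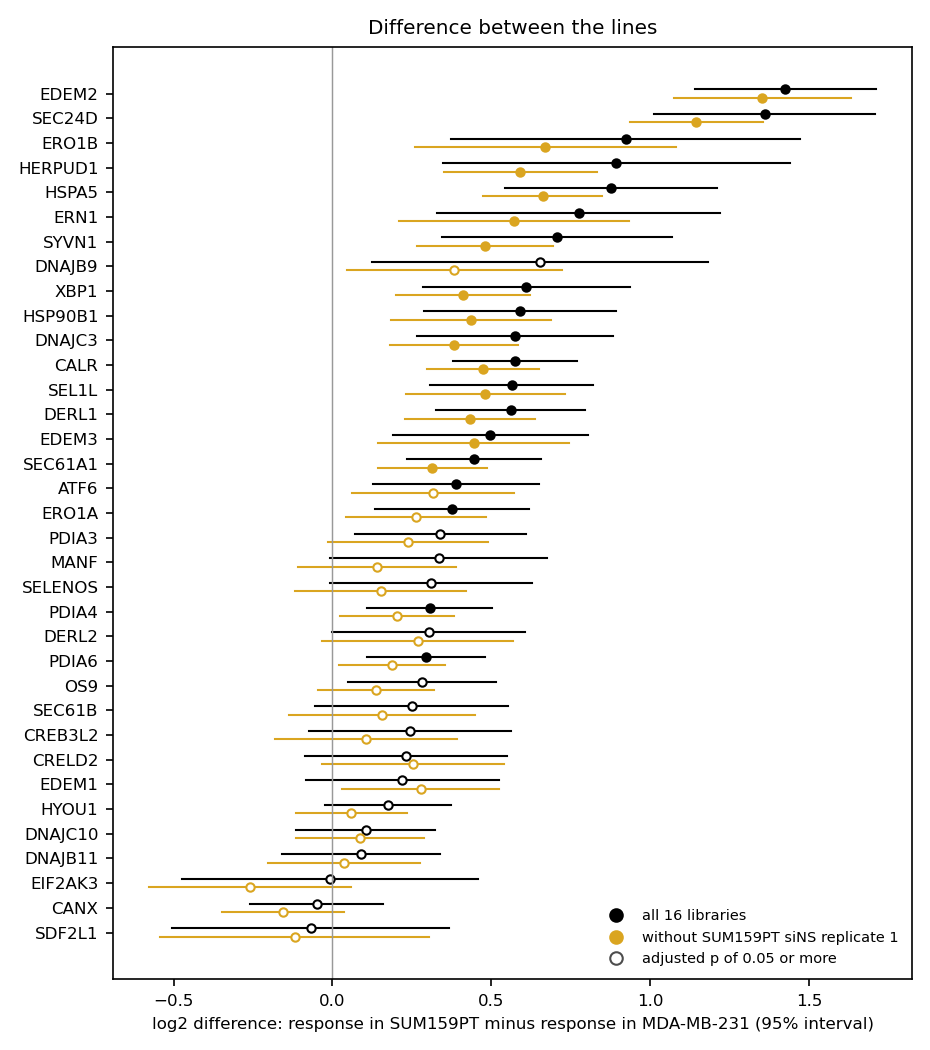
Log2 difference of the siYES1 response (SUM159PT minus MDA-MB-231) for the 35 members, with 95% intervals; black uses all 16 libraries, ochre leaves out SUM159PT control replicate 1, and open points did not pass the test. EDEM2 (1.43) and SEC24D (1.36) head the order, and most ochre points lie to the left of their black partners.

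Control cells of the lines differed for most members, as they did for most genes. Comparing siNS SUM159PT with siNS MDA-MB-231, 23 members were higher and 8 lower (backgrounds 38.0% and 39.0%), with a median of 0.67; the share called higher exceeded the background and the share called lower was below it. Line and table are the same split here and cannot be told apart. Scaled over all 16 libraries, EIF2AK3 was at 10.3, 8.29, 8.98 and 8.71 CPM in MDA-MB-231 controls and 22.8, 53.9, 43.4 and 38.5 in SUM159PT, a log2 fold change of 2.12 (SE 0.17, edgeR adjusted p = 1.84e-10). HERPUD1 was at 33.3, 38.5, 40.4 and 40.5 CPM and 73.99, 212, 187 and 166, a log2 fold change of 2.07 (SE 0.19, edgeR adjusted p = 1.73e-09). SUM159PT exceeded MDA-MB-231 without overlap for both genes, even with its replicate 1.

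Chaperones were on the same side: 10 of 11 were higher in SUM159PT, among them DNAJC3 (1.32), CRELD2 (1.28) and HSP90B1 (1.24), while CALR was lower (-0.64). Degradation genes were divided, with 3 higher, 4 lower and 3 not called. DERL2, another derlin, was at 61.5, 68.98, 51.4 and 53.4 CPM in MDA-MB-231 controls and 12.1, 11.4, 11.1 and 11.03 in SUM159PT, the largest gap among the 35 members tested, -2.36 (edgeR adjusted p = 4.79e-15, SE 0.11). DERL3 had 0 counts in every SUM159PT library and 6 to 8 in the MDA-MB-231 control libraries, so no fold is given. It passed the filter in 13 of the 16 fits that left out 1 library, only through its MDA-MB-231 counts. A call there could only be lower in SUM159PT, and these fits share most of their libraries, so no call is read as support. SYVN1 (-1.16), SELENOS (-0.51) and DERL1 (-0.32) were lower as well. Calls that turned on 1 library were those of CANX (0.16 without MDA-MB-231 control replicate 4), SEC61A1 (-0.15 without MDA-MB-231 control replicate 4 and -0.09 without SUM159PT control replicate 1), ATF6 (-0.25 to -0.23 without MDA-MB-231 control replicate 3 or 4) and EDEM1 (-0.30 to -0.28 without MDA-MB-231 control replicate 2 or SUM159PT control replicate 1).

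**Figure D5:**
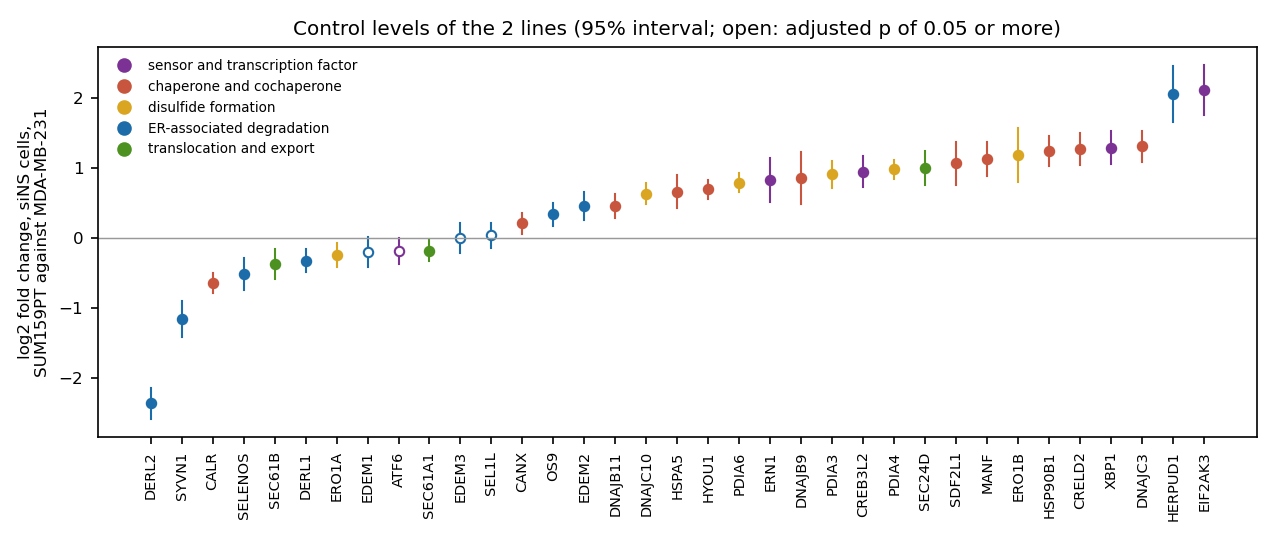
Log2 fold change of control SUM159PT against control MDA-MB-231 cells for the 35 members, ordered by value and coloured by role, with 95% intervals; open points did not pass the test. EIF2AK3 (2.12) and HERPUD1 (2.07) stand at the upper end and DERL2 (-2.36) at the lower end.

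Other genes of these pathways, 98 in 6 lists also chosen with earlier results known, all passed the filter on low counts. Their counts are read against the background, the shares of all genes. In MDA-MB-231 24.9% rose and 27.5% fell, in SUM159PT 17.7% rose and 19.0% fell, and the difference was higher for 15.4% and lower for 8.85%. With total counts these shares were 21.7% and 30.4%, 9.63% and 28.8%, and 8.44% and 17.1%, in the same order. Without SUM159PT control replicate 1 they were 21.0% and 21.5% in SUM159PT and 13.3% and 10.5% for the difference. Of 10 genes of the PERK arm, 3 rose and 2 fell in MDA-MB-231 (median 0.03), 9 rose and 0 fell in SUM159PT (median 0.76), and the difference was called higher for 5 and lower for 0. The shares in MDA-MB-231 were near the background, and the share that rose in SUM159PT was above it. Its effector ATF4 rose in both lines, by 0.34 and 0.57, and so did PPP1R15A, which brings a phosphatase to eIF2α, by 0.67 and 0.90. TRIB3, a pseudokinase induced downstream of ATF4, fell by 0.76 on the log2 scale in MDA-MB-231 and rose by 1.15 in SUM159PT, a difference of 2.01. DDIT3 (CHOP) had -0.12 in MDA-MB-231, not called, and rose by 0.96 in SUM159PT, where its value with total counts, 0.81, was not called. With total counts, 4 of the 10 rose in SUM159PT and 0 fell, and the difference was called higher for 3 and lower for 0. Without SUM159PT control replicate 1, all 10 rose. The rises in that fit were 0.42 for ATF4, 0.72 for PPP1R15A, 1.05 for TRIB3 and 0.68 for DDIT3.

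Of 17 genes of the COPII coat and of ER-Golgi cargo receptors, 1 rose (SEC31A, not called with total counts) and 7 fell in MDA-MB-231 (median -0.09), 9 rose and 0 fell in SUM159PT (median 0.30), and the difference was called higher for 13 and lower for 0. The share that fell in MDA-MB-231 was 41.2%, and those that rose in SUM159PT and were higher in the difference were 52.9% and 76.5%, all above the background. SEC23A, which pairs with SEC24 proteins such as SEC24D, fell by 0.37 in MDA-MB-231 and rose by 0.48 in SUM159PT. KDELR3, a receptor that returns ER residents, fell by 0.70 in MDA-MB-231, and SEC24A fell by 0.40. SEC31A and SEC13, of the outer coat, rose by 0.60 and 0.50 in SUM159PT. With total counts, 6 of the 17 rose and 0 fell in SUM159PT, and the difference was called higher for 8 and lower for 0; without SUM159PT control replicate 1 these counts were 10, 0, 11 and 0.

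The other 4 lists held calls in both directions in both lines. Of 20 genes of the translocon, signal peptidase and oligosaccharyltransferase, 2 rose and 4 fell in MDA-MB-231 and 11 rose and 3 fell in SUM159PT, the latter becoming 2 and 5 with total counts. The 55.0% that rose in SUM159PT exceeded the background, and the other 3 shares did not. With total counts the share that rose in SUM159PT was near its background of 9.63%. SEC61A2 fell in both lines (-0.85 and -0.83), SSR1 fell by 0.93 and SSR3 rose by 0.69 in MDA-MB-231, and OSTC and SEC11C rose by 0.55 and 0.49 in SUM159PT, SEC11C not with total counts (0.32). Of 22 other degradation genes, 4 rose and 7 fell in MDA-MB-231 and 7 rose and 4 fell in SUM159PT (2 and 5 with total counts). These are shares of 18.2% and 31.8% in MDA-MB-231 and 31.8% and 18.2% in SUM159PT, near the background except for the rises in SUM159PT. With total counts those rises were near their background of 9.63% as well. TMEM129, a membrane ubiquitin ligase, fell in both (-0.49 and -0.71), the lectin ERLEC1 fell in MDA-MB-231 (-0.51), and SEL1L3 fell in SUM159PT (-0.72).

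Of 22 other folding enzymes, 7 rose and 4 fell in MDA-MB-231 and 4 rose and 3 fell in SUM159PT (2 and 6 with total counts). Their shares, 31.8% and 18.2% in MDA-MB-231 and 18.2% and 13.6% in SUM159PT, were close to the background. TXNDC12 rose in both (0.99 and 0.49, the latter not called with total counts, at 0.33), FICD, which modifies HSPA5, and TMX1 rose in MDA-MB-231 (0.79 and 0.70), and in SUM159PT PDIA5 rose (0.54) and UGGT2 fell (-0.40). Of 7 site proteases and CREB3 family genes, 1 rose and 3 fell in MDA-MB-231 and 2 rose and 1 fell in SUM159PT (0 and 1 with total counts), shares of 14.3% and 42.9% and of 28.6% and 14.3%. MBTPS2, the site-2 protease that releases ATF6, fell in both (-0.66 and -0.68), and CREB3L1 fell in MDA-MB-231 (-0.49). CREBZF rose in both (0.50 and 0.43) and CREB3 rose in SUM159PT (0.38), but in SUM159PT neither was called with total counts (0.26 and 0.21).

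The responses can also be set beside the promoter elements. Of the 11 with ERSE or ERSE-II, 1 rose and 3 fell in MDA-MB-231 (median -0.02) and 5 rose and 0 fell in SUM159PT (median 0.14). Of the 21 members with a promoter that held neither, 2 rose and 5 fell in MDA-MB-231 (median -0.02) and 10 rose and 0 fell in SUM159PT (median 0.29). Shares that rose in SUM159PT were thus 45.5% and 47.6%, both above the background of 17.7%, and shares that fell in MDA-MB-231 were 27.3% and 23.8%, near the 27.5% of all genes. With total counts, 8 of all 35 members rose and 6 fell in SUM159PT (backgrounds 9.63% and 28.8%). The rises lost then included ERO1B and PDIA6 of the first set and ATF6, MANF, SYVN1, EDEM3 and SEC61B of the second. The median difference between lines was 0.57 for the first set and 0.33 for the second. These are descriptions, and no test of the sets was made.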

How the data were processed

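Members and gene lists were chosen with earlier results of these data known. The deposited values are raw counts per gene, made by the authors with HISAT2 2.0.5 and featureCounts 1.5.0-p3 on hg38, per the submitters' processing notes; the sources used here give neither the annotation release nor the strand setting. Each table was fitted as a whole in R 4.3.3 with edgeR 4.0.16 (filterByExpr, TMM, quasi-likelihood F test, Benjamini-Hochberg adjustment over all genes tested, called at an adjusted p under 0.05): 8 libraries for each line, and 16 for the difference and for the control comparison. The scripts were tested on simulated data. Alternatives used RLE or total counts as scaling, other filters, DESeq2 1.42.0, limma 3.58.1 (voom), a replicate block, a joint fit, and each library left out.

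Values of every library are given for the 5 sensors and factors, HSPA5, HSP90B1 and up to 6 called members with the largest absolute log2 fold change in each line and in the difference. Of each context list, up to 3 called genes a line at a mean of 5 CPM or more are named, and ATF4, DDIT3 and TRIB3; 1 gene that this rule names and 1 marker gene are not reported here. Gene IDs were matched to GENCODE 29 (58735 of 58735). The fitted standard errors hold counting error and the spread between libraries together.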

Additional observations from a re-analysis of the deposited data

Results flagged for a closer look

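In 7 of 140 sets of 4 libraries (1 member in 1 group), the highest or lowest library stood far from the other 3 by Dixon's ratio; chance gives about 1 in 20 such sets. DNAJB11 was at 68.0 CPM in MDA-MB-231 control replicate 2, and CRELD2 was at 19.8 CPM in MDA-MB-231 control replicate 1. SUM159PT control replicate 1 accounted for 3 of the 7, with ERO1B at 7.68 CPM, OS9 at 138 CPM and SEC24D at 165 CPM. SUM159PT siYES1 replicate 3 accounted for HERPUD1 at 256 CPM and EDEM3 at 85.2 CPM.

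The response to siYES1 differed between the lines, by the interaction test in edgeR, for 19 of 35 members. All 19 had a positive log2 difference (SUM159PT minus MDA-MB-231), with backgrounds of 15.4% of all genes higher and 8.85% lower. Among sensors and factors the differences were 0.77 for ERN1, 0.61 for XBP1 and 0.39 for ATF6. Among chaperones they were 0.88 for HSPA5, 0.59 for HSP90B1, 0.58 for DNAJC3 and 0.57 for CALR. Enzymes of disulfide formation gave 0.92 for ERO1B, 0.38 for ERO1A, 0.31 for PDIA4 and 0.29 for PDIA6. Degradation genes gave 1.43 for EDEM2, 0.89 for HERPUD1, 0.71 for SYVN1, 0.56 for SEL1L, 0.56 for DERL1 and 0.50 for EDEM3. SEC24D gave 1.36 and SEC61A1 gave 0.44.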

How the results depend on the processing

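With total counts as the scaling, 8 members rose and 6 fell in SUM159PT, and the difference between lines was called higher for 11 and lower for 1; no other planned setting that kept all libraries moved a count of called members by over 1.5 times. Leaving out 1 library at a time gave 3 to 7 members higher and 8 to 10 lower in MDA-MB-231 (7 higher without control replicate 1), 11 to 18 higher and 0 to 1 lower in SUM159PT, 15 to 23 higher and 0 to 0 lower for the difference, and 22 to 23 higher and 8 to 10 lower between control lines. Called genes over the whole table then ran from 6725 to 7753, 4323 to 6237, 3349 to 4495 and 12259 to 13055. The 11 in SUM159PT came without siYES1 replicate 1, 2 or 4, and the 1 called lower came without control replicate 1. Over members and settings, 9 calls were gained and 7 lost of 560 for MDA-MB-231, 17 and 38 of 560 for SUM159PT, 10 and 33 of 840 for the difference and 7 and 5 of 770 between control lines, and no called member changed sign. Replicate numbers are shared between groups, but same-numbered libraries did not deviate together (correlations from -0.12 to 0.09), so the numbers were not taken as a pairing. With a replicate block, MDA-MB-231 had 4 members higher and 9 lower, SUM159PT had 16 and 0, and the difference had 17 and 0. Shares of all genes by direction are not given beside these counts or the leave-one-out ranges, so neither is read against a background. Low counts limit DERL3, which the filter left out with all libraries. It passed in 13 of 16 leave-one-out fits of all groups, through MDA-MB-231 counts alone, so its calls between control lines could only be lower. Those calls are counted in the leave-one-out range above. DERL3 was not called for the difference in any of these fits, nor in MDA-MB-231 without any filter (edgeR adjusted p = 0.154).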
